A study of Rattus norvegicus with 4 samples.

Results

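The 68 genes described here code for protein subunits of the mitochondrial ribosome. They were chosen by name alone: a gene belonged where the accession of a non-control probe led, through the RefSeq gene table, to a rat symbol of Mrpl or Mrps followed by a digit. Symbols starting Mrpl were counted with the large subunit (42 genes) and those starting Mrps with the small subunit (26 genes), out of 16579 genes that had both a symbol and a probe. The gene table held 118 such symbols, of which 78 were protein coding and 40 were pseudogenes. None of the pseudogenes had a probe of its own. The 10 protein-coding genes without a named probe were Mrpl28, Mrpl33, Mrpl39, Mrpl41l1, Mrpl42l1, Mrpl43, Mrps6, Mrps10, Mrps28 and Mrps36l1, and no value is given for them. Mrpl9, Mrpl11 and Mrpl24 were not among the 78 protein-coding symbols, so they have no value here.

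Mitochondria translate the few messages of their own genome, which code for core subunits of the respiratory chain and of ATP synthase, on ribosomes of their own. The rRNA of these ribosomes comes from the mitochondrial genome, while every protein subunit is coded in the nucleus, made in the cytosol and imported. Many of the proteins descend from those of the bacterial ribosome, and the others are found in mitochondria only. Macrophages depend on mitochondria for energy, for reactive oxygen species and for signals in inflammation.

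All samples belonged to 1 group. NR8383, a line of alveolar macrophages obtained by lavage of a normal rat's lung, was used after 20 passages and seeded for 48 h in 25 cm2 flasks. The cells were exposed for 4 h to titanium dioxide, the material NRCWE001, at a dose of 3 cm2 of particle surface per cm2. The cultures numbered 4, called biological replicates by the design text, and each was hybridised on an array of its own. Unexposed cells, which the design text names too, were not analysed here, so nothing below is a response to the particles. A culture and its array cannot be told apart, and as these are bulk samples, neither can fewer cells of a type and less RNA per cell.

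The arrays measured Cy3-labelled cRNA made from 100 ng of total RNA with an integrity number above 7.5. On replicates 1 to 4 the 75th percentile of processed signals stood at 433, 347, 554 and 414 intensity units, over median local backgrounds of 36 to 41 units, and no spot was saturated. Of the macrophage markers, 10 of 14 were well above background on all 4 arrays, and Marco, Adgre1, Cd163 and Cybb were so on none. Of the other lung markers, 1 of 9 epithelial genes (Foxj1), none of 3 measured lymphocyte genes and 3 of 7 genes of fibroblasts and endothelium (Pecam1, Cdh5 and Vwf) were well above background on all 4 arrays.

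Every one of the 68 measured genes was well above background on all 4 arrays, the 42 of the large subunit and the 26 of the small. Over all named genes the same held for 7579 of 16579, or 45.7%, and over protein-coding genes for 46.7%. On at least 1 array it held for 51.8% of all named genes. A gene counted here where the scanner software's flag was set on over 0.5 of the spots of any of its probes. Processed signals of these genes ran from 25.6 units (Mrpl47 on replicate 4) to 15320 units (Mrpl12 on replicate 3), with medians of 1756, 1674, 2398 and 1882 units on replicates 1 to 4. The lowest signal of any non-control spot well above background was 13.5 to 16.6 units, depending on the array. On replicate 4, 7 of the genes lay under 100 units, and on replicate 3, 3 did.

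Promoter sequences were available for 55 of the 68 genes in the RefSeq table of assembly GRCr8, as windows from 250 bases before to 50 after the annotated start of transcription. They were searched on both strands for short words that known factors bind, and a match is a description of letters, not a binding site. NRF1 and the ETS factor GABP (also called NRF2, and distinct from the oxidative stress regulator of that name) are known activators of nuclear genes for mitochondria. The NRF1 word, GCGCA and GCGC with any base N between them, was in 16.4% of the 55 windows, in 11.4% of 6370 windows of genes well above background on all 4 arrays, and in 4.71% of all 27457 windows. CCGGAAG, the ETS word, was in 34.5%, 21.0% and 9.22% of the same sets. Either word, or both, was in 43.6% of the 55 windows, against 29.6% for detected genes and 13% of all windows. By subunit it was 48.6% of large subunit windows (17 of 35) and 35.0% of small subunit windows (7 of 20). The difference between the subunits was not tested. The median share of G and C was 56.3% in these windows and 60.7% in those of detected genes. GGGCGG, the SP1 word, was in 52.7% of them against 63.3% of detected genes. CCAAT was in 45.5% against 39.7%, and TATAAA in 12.7% against 6.89%. Over all 27457 windows the shares were 34.9% for the SP1 word, 37.7% for CCAAT and 14.3% for TATAAA.

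Stretches of 150 bases just before the start are printed for Mrpl32, Mrps18b, Mrpl57 and Mrpl53 to show what the NRF1 and ETS words look like in place. They were chosen after the matches were seen. Capitals mark the NRF1 and ETS words, or their reverse complements, and letters run 5′ to 3′ on the strand of the gene. Mrpl32 codes for a large subunit protein that a mitochondrial inner membrane protease matures, Mrps18b for 1 of 3 relatives of bacterial S18, and Mrpl57 and Mrpl53 for mitochondria-specific proteins of the large subunit. The stretches lie at chr17:55260501-55260650 (+ strand), chr20:2842856-2843005 (+ strand), chr15:36086307-36086456 (+ strand) and chr4:117172893-117173042 (+ strand) of GRCr8.
Mrpl32: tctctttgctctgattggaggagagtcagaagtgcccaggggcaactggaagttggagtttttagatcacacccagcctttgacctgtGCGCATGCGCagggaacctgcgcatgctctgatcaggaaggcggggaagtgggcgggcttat
Mrps18b: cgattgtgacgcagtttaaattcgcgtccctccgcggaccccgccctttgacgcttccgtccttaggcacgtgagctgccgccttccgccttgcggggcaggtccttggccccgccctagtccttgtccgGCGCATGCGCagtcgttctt
Mrpl57: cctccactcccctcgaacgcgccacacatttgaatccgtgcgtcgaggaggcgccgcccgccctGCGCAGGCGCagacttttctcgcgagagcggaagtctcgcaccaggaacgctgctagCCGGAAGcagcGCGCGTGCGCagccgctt
Mrpl53: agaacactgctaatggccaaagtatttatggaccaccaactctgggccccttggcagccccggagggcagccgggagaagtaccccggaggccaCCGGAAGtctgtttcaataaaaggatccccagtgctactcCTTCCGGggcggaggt

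The word AAGATGGC, known as a target of the factor YY1, was in 13 of the 55 windows (23.6%), against 6.37% of windows of detected genes and 3.44% of all. In 10 of the 55 (18.2%) it lay after the start on the strand of the gene, with its first base between positions 1 and 30 counted from the start, against 3.03% and 1.25% of the other sets. The word contains ATG, the letters of a start codon, and whether translation starts there was not tested. The 10 matches are shown with 10 bases on each side, the word in capitals, to let the bases around it be compared.
Mrpl46, chr1:142116989-142117016, - strand: ggaagacggaAAGATGGCggcgcccata
Mrpl49, chr1:212779294-212779321, - strand: tggaggagcaAAGATGGCagcaaatgta
Mrps27, chr2:32474223-32474250, + strand: ggtacgctccAAGATGGCggcccccatg
Mrps30, chr2:52195869-52195896, - strand: gcggaggacaAAGATGGCggctgccagg
Mrpl50, chr5:68668044-68668071, - strand: gagcttgtcgAAGATGGCggcgctgtgt
Mrpl37, chr5:127074944-127074971, - strand: tgcccgggcaAAGATGGCggcgtccagg
Mrpl42, chr7:32028486-32028513, - strand: agattgaagcAAGATGGCgagcgcgcgg
Mrps18a, chr9:22367363-22367390, - strand: gtgtgttcccAAGATGGCggccctcagg
Mrps7, chr10:101342638-101342665, + strand: gatagcggccAAGATGGCtgcccccgca
Mrps18b, chr20:2843024-2843051, + strand: gatgtgcgacAAGATGGCtgcctccttg

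**Figure D1:**
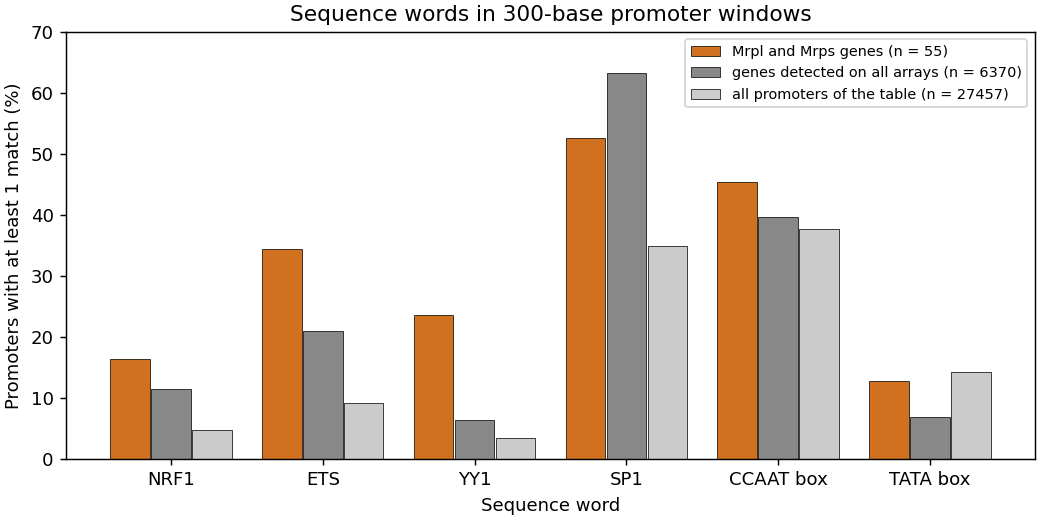
Share of promoter windows (%, vertical axis from 0) that hold each sequence word at least once, for 55 windows of Mrpl and Mrps genes, 6370 of genes well above background on all 4 arrays and 27457 of the whole RefSeq table. The YY1 word was in 23.6% of the Mrpl and Mrps windows against 6.37% and 3.44%, while the SP1 word was in 52.7% against 63.3% and 34.9%.

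Many of these genes lie head to head with a neighbour. Another gene started on the opposite strand within 1000 bases upstream for 18 of the 55 (32.7%), against 18.2% of detected genes and 10.3% of all in the promoter table. For 1 pair both genes were mitochondrial ribosomal: Mrpl46, of the large subunit's central protuberance, and Mrps11, of the small subunit, start 234 bases apart. The bases between their starts, at chr1:142117031-142117263 of GRCr8, are printed on the strand of Mrps11 because both genes share them. They hold neither the NRF1 nor the ETS word.
Mrps11: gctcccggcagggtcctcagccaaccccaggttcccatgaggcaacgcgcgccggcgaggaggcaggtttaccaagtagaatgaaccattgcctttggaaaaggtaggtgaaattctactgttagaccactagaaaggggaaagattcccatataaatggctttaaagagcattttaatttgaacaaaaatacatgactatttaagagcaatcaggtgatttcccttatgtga

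Levels below are log2 of the processed signal minus that array's 75th percentile, and they order arrays within a gene, not genes. Mrpl46 lay at 0.08, 0.01, 0.11 and 0.10 on replicates 1 to 4 (SD 0.05, n = 4). Mrps11 lay at 1.22, 1.37, 1.11 and 1.49 (SD 0.16). Mrps11 was lowest on replicate 3, where Mrpl46 was highest, though by little. Of the 14 neighbours that had a probe, 12 were well above background on all 4 arrays (85.7%, against 82.5% of such neighbours of all detected genes). The 12 include Mrpl46 and Mrps11, each counted as the other's neighbour. Also among the 12 were Psma2, a proteasome subunit gene beside Mrpl32, and Fau, a cytosolic ribosome gene beside Mrpl49. Ndufb5, a gene of respiratory complex I beside Mrpl47, was another. Mitd1, beside Mrpl30, was well above background on 1 array. Helq, a helicase gene beside Mrps18c, was not well above background on any array.

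In the large subunit, the genes of the stalk and the catalytic core had SDs between 0.14 and 0.21. Mrpl12, the stalk protein that takes the place of bacterial L7/L12, lay at 4.84, 4.99, 4.79 and 5.10 (SD 0.14, n = 4). Its probe was printed on 10 spots, and single spots within an array had an SD of 0.06 to 0.11, a measure of spot noise only. Mrpl10, which anchors it, lay at 3.82, 3.99, 3.55 and 3.59 (SD 0.20), and unlike Mrpl12 it was low on replicate 4 as well as on replicate 3. Mrpl2, near the site where peptide bonds form, lay at 1.34, 1.56, 1.20 and 1.67 (SD 0.21). Mrpl3, also near that site, lay at -0.56, -0.29, -0.49 and -0.27 (SD 0.14). Both were higher on replicates 2 and 4 than on 1 and 3.

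At the exit of the tunnel through which the new protein leaves, 5 genes were measured (Mrpl17, Mrpl22, Mrpl23, Mrpl45 and Mrpl47), with a median SD of 0.14. Mrpl45, which docks the ribosome on the inner membrane, lay at 3.56, 3.80, 3.60 and 3.81 (SD 0.13). Mrpl47 had the largest SD of the 5, at levels of -3.25, -3.38, -3.07 and -4.02 (SD 0.41), and its signals of 25.6 to 66.1 units were close to the lowest signals detected. The central protuberance, which joins the subunits at the top, was represented by 7 genes with a median SD of 0.14. Mrpl58, a peptidyl-tRNA hydrolase of the family that rescues stalled ribosomes, lay at 4.07, 4.14, 3.93 and 4.21 (SD 0.12). Mrpl38 was the most spread of the 7 (SD 0.25), and Mrpl46, given above, the least.

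The smallest SDs of the large subunit belonged to Mrpl32 (1.99, 2.05, 2.03 and 2.06, SD 0.03), Mrpl41 (SD 0.04) and Mrpl46. A fold of 1.05 separated the highest from the lowest array for Mrpl32. With another background correction, given at the end, the SDs were 0.09 for Mrpl32, 0.10 for Mrpl41 and 0.14 for Mrpl46. A second probe of Mrpl41 had an SD of 0.10. The largest SDs belonged to Mrpl42, Mrpl47, Mrpl1, Mrpl21 and Mrpl50. Mrpl42, a mitochondria-specific protein, lay at -2.93, -3.26, -2.35 and -3.25 (SD 0.42). Mrpl1, a protein of the mobile L1 stalk, lay at -1.57, -1.68, -0.83 and -1.58 (SD 0.39), so replicate 3 stood 0.59 above the mean while the other arrays differed little. A second probe of Mrpl1 gave -1.54, -1.79, -1.05 and -1.65, with replicate 3 again the highest. Mrpl50 was also highest on replicate 3, at -2.17, -2.11, -1.73 and -2.41 (SD 0.28). Mrpl21 lay at 0.16, -0.0038, -0.21 and -0.63 (SD 0.34), lowest on replicate 4. None of these 5 passed the test of variance given below. By Dixon's ratio, also given below, only Mrpl1 of the 5 had an array set apart. The SD usually falls when the most extreme of 4 values is left out, so the next values are a description only. Without replicate 3 the SD was 0.18 for Mrpl42, 0.06 for Mrpl1 and 0.16 for Mrpl50, and without replicate 4 it was 0.16 for Mrpl47 and 0.18 for Mrpl21.

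In the small subunit, Mrps12, which is known for its part in accurate decoding, lay at 3.52, 3.54, 3.38 and 3.61 (SD 0.09). Mrps2 lay at -2.13, -2.14, -2.35 and -2.16 (SD 0.11), with replicate 3 apart from the others. The S18 relatives do not all sit in the small subunit: in solved structures of mammalian ribosomes Mrps18a sits in the large one, as does Mrps30. Mrps18a lay at 2.94, 3.02, 2.69 and 3.12 (SD 0.19), Mrps18b at 0.07, 0.17, -0.01 and 0.24 (SD 0.11) and Mrps18c at 2.51, 2.53, 2.33 and 2.51 (SD 0.09). All 3 were lowest on replicate 3. Mrps30 lay at 1.26, 1.39, 1.26 and 1.42 (SD 0.08).

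The smallest SDs of the small subunit were those of Mrps23 (0.06), Mrps17 (0.07) and Mrps33 (0.07). With the other background correction given at the end, these SDs were 0.06, 0.08 and 0.15. Behind Mrps35 and Mrps21l, described below, the largest were those of Mrps22 (0.32), Mrps14 (0.29) and Mrps27 (0.21). Mrps22, whose human counterpart is a mitochondrial disease gene, lay at -2.57, -3.10, -2.65 and -3.23, so replicates 1 and 3 stood above 2 and 4. Mrps14 lay at -3.38, -2.71, -2.85 and -3.04. Mrps27, a protein with pentatricopeptide repeats, lay at -2.07, -1.73, -2.22 and -2.10. Without replicate 1 the SD of Mrps14 was 0.16, and without replicate 2 that of Mrps27 was 0.08. A second probe of Mrps27 lay at -3.32, -3.14, -2.93 and -3.21 (SD 0.16). It was highest on replicate 3, where the first probe was lowest, and the average of both probes had an SD of 0.12.

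**Figure D2:**
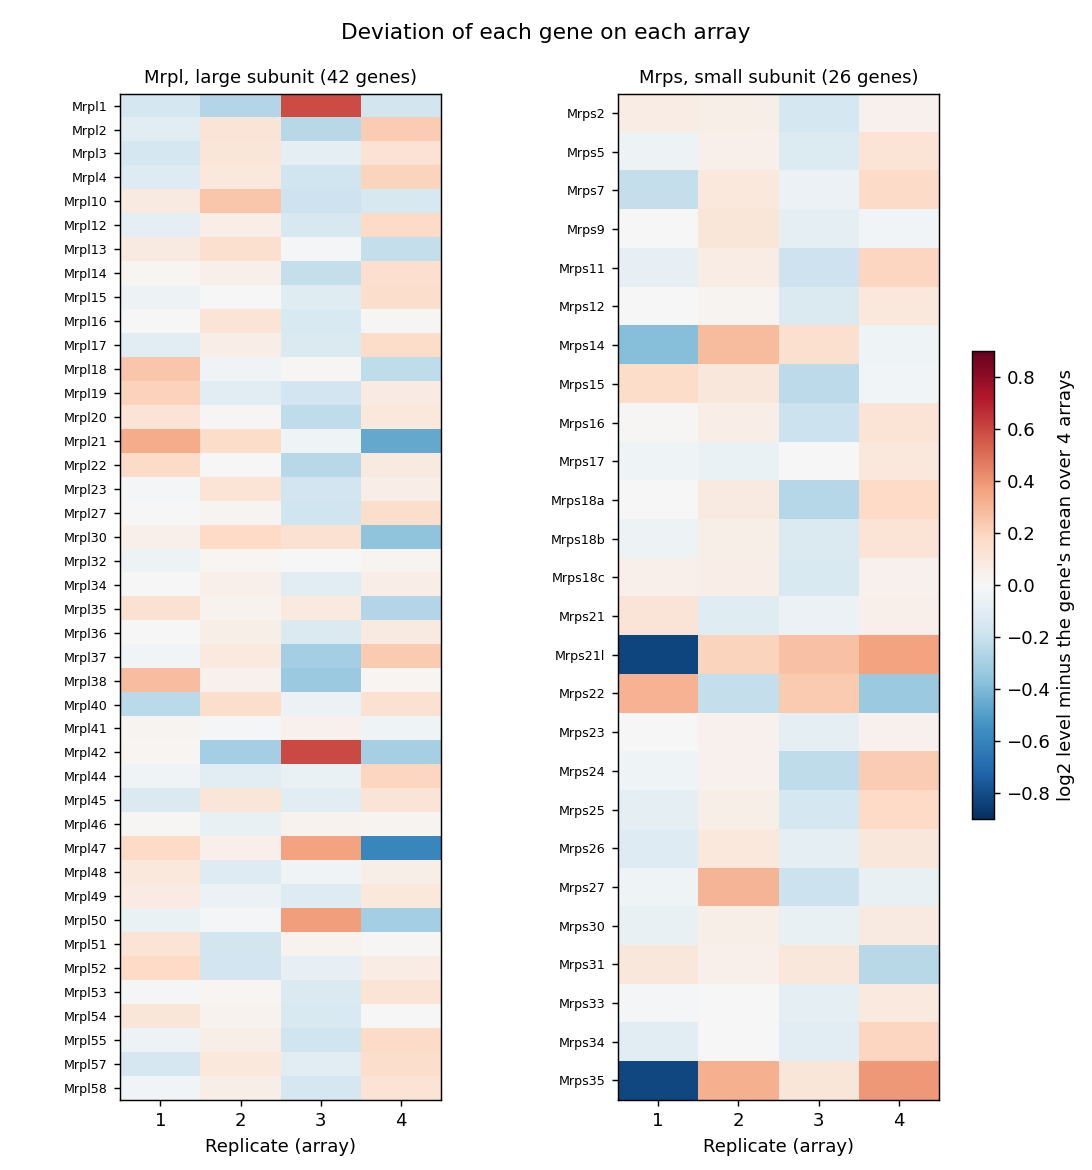
Heat map of each gene's level on each array minus its mean over the 4 arrays (log2, colour scale), with the 42 large subunit genes on the left, the 26 small subunit genes on the right and replicates 1 to 4 along the horizontal axis. Mrps35 and Mrps21l are dark blue on replicate 1, Mrpl1 and Mrpl42 are red on replicate 3, and pale blue prevails on replicate 3, where 51 of the 68 genes lay below their mean.

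The median SD between the 4 arrays was 0.147 for the large subunit (range 0.03 to 0.42) and 0.137 for the small (range 0.06 to 0.56), against 0.163 over 7570 genes whose probe was well above background on all arrays. As a fold this is 1.11 for the 68 genes and 1.12 for all genes. Of the 68 genes, 27 (39.7%) had an SD above the median of all genes. The 40 genes with a bacterial counterpart had a median SD of 0.151 and the 27 found in mitochondria only had 0.132. The highest and lowest array differed by over 0.5 for 12 of the 68 genes (17.6%), against 27.1% of all genes. These comparisons are not matched for level: the median level was 2.17 for the 68 genes and -0.04 for all. Over all tested genes that share was 53.2% at levels below -2 and 15% above 2. The median SD of these genes was 0.29 against 0.24 below -2 and 0.13 against 0.16 at -2 to 0. It was 0.16 against 0.14 at 0 to 2 and 0.14 against 0.15 above 2.

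Mrps35 and Mrps21l varied by more than genes of like level, as 2 of the 68. The test, limma's trended and robust prior variance with Benjamini-Hochberg adjustment at 0.05 over all 7570 genes, called 39 in all, or 0.515%. A single array was set apart from the rest by Dixon's ratio for 5 of the 68 genes, against 5.46% of all tested genes. An unadjusted p under 0.05 was found for 4 of the 68 genes, or 5.88%, against 6.67% of all genes. A simulation of 7570 genes with independent normal noise held 50 genes at each raised SD. There an SD 2 times that of other genes was found in 10% of cases and one 3 times as large in 34%. At 4 times the share was 56% and at 6 times 86%, so most moderately variable genes would be missed.

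Mrps35, a mitochondria-specific protein of the small subunit, lay at 1.44, 2.58, 2.37 and 2.66 on replicates 1 to 4 (mean 2.26, SD 0.56, n = 4). The limma prior variance test gave it an adjusted p of 0.0125 by Benjamini-Hochberg. Replicate 1 lay 0.82 below the mean, and without it the SD was 0.15. A second probe of Mrps35 was not well above background on any array. It lay at -4.15, -5.63, -5.26 and -5.40, highest on replicate 1, where the first probe was lowest. Values so near background are a description only.

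Mrps21l, a Mrps21-like gene with an RNA model predicted by RefSeq, lay at -0.45, 0.57, 0.64 and 0.73 (mean 0.37, SD 0.55, n = 4). The limma prior variance test gave an adjusted p of 0.0172 by Benjamini-Hochberg. Replicate 1 was again the low array, and without it the SD was 0.08. Mrps21 itself lay at 2.77, 2.54, 2.59 and 2.69 (SD 0.10) and was highest on replicate 1. Whether the probe of either gene also binds the other's transcript was not tested.

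Both calls rested on replicate 1 and on 1 spot a gene. The spot of Mrps35 was printed at column 2 of the array and that of Mrps21l at column 54. Of the 39 genes called in all, 36 had a spot at columns 1 to 72, a stretch chosen with earlier results of these arrays known, as did 3586 of the 7570 tested and 27 of the 68. Within these 27 genes the median SD was 0.154, against 0.139 for the 41 printed beyond column 72, and over all tested genes the pair was 0.176 and 0.154. Neither gene has a spot beyond column 72, so a value there could not be had. Mrpl12 has 5 spots at columns 1 to 72 and 5 beyond (4 on replicates 3 and 4), and the mean of the first minus that of the others was -0.04, -0.04, -0.08 and -0.14 on replicates 1 to 4. The calls of both genes were lost without replicate 1 (adjusted p = 0.982 for Mrps35 and 0.987 for Mrps21l by limma's prior variance test), and under several other settings given at the end. The part that array position plays in them was not tested.

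**Figure D3:**
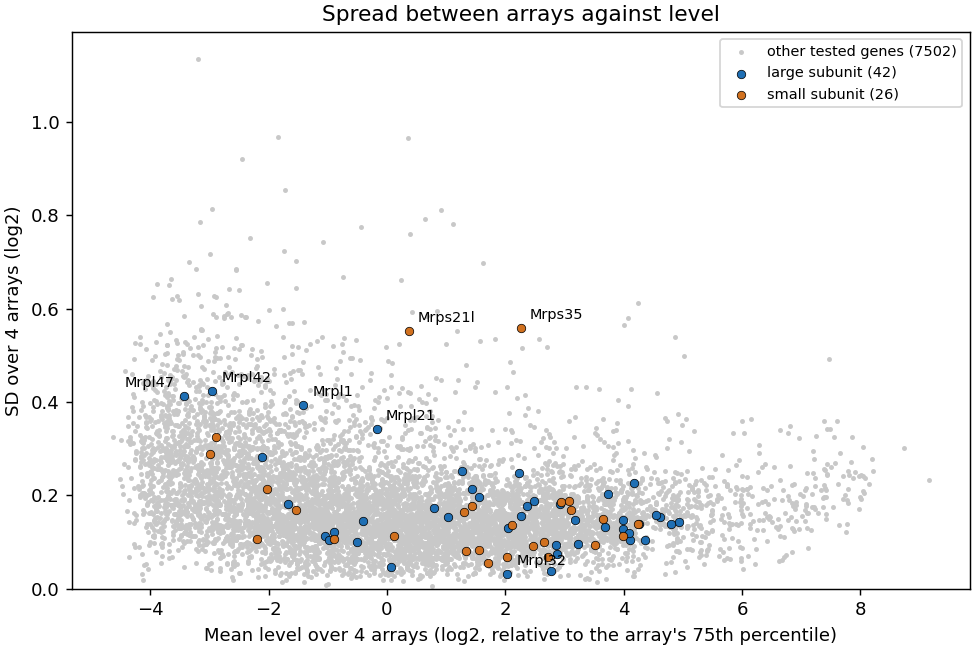
SD over the 4 arrays (log2, vertical axis) against mean level (log2 relative to the array's 75th percentile, horizontal axis) for the other tested genes in grey, 42 large subunit genes in blue and 26 small subunit genes in orange. Mrps35 and Mrps21l stand above genes of their level at SDs of 0.56 and 0.55, and Mrpl32 lies near the bottom at 0.03.

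**Figure D4:**
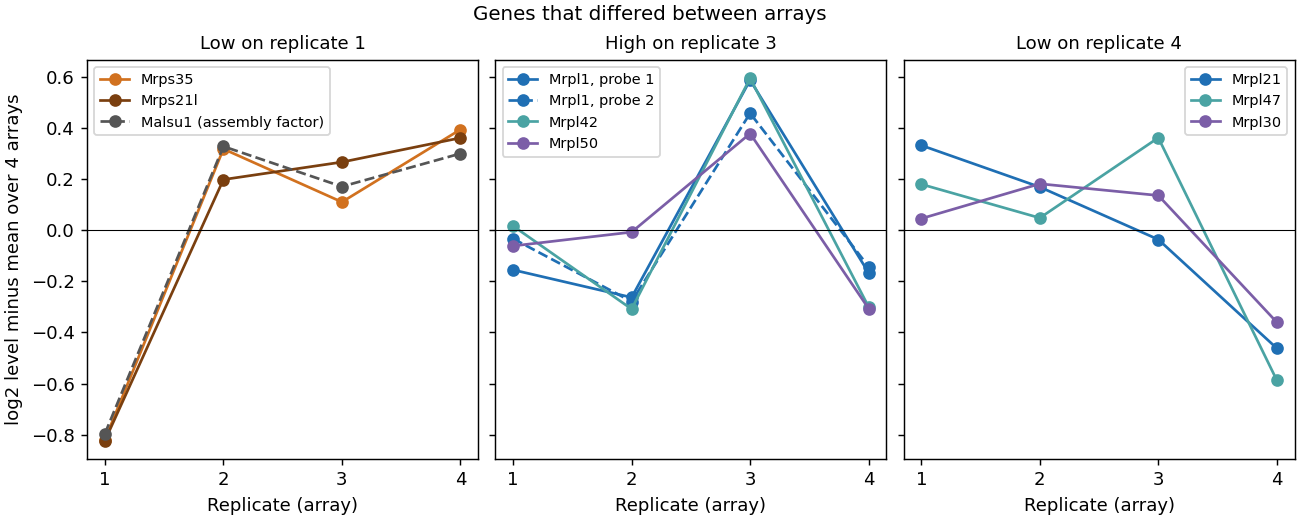
Level minus mean over the 4 arrays (log2, vertical axis) by replicate (horizontal axis) for genes low on replicate 1, high on replicate 3 and low on replicate 4. Lines join the 4 values of a probe only to make them easier to follow. Mrps35, Mrps21l and the assembly factor gene Malsu1 all lay well below their means on replicate 1, and both probes of Mrpl1 were highest on replicate 3.

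The genes, like all tested genes, leaned the same way on some arrays. The deviations of a gene cancel over the arrays, so these leanings are not separate results. On replicate 3, 51 of the 68 lay below their mean and 17 above (25% above, against 34.8% of all tested genes), with a median deviation of -0.10 against -0.08. On replicate 4, 51 lay above (75%, against 62.2%), with a median of 0.08 against 0.05. On replicate 2, 51 lay above (75%, against 56.6%), with a median of 0.05 against 0.02. On replicate 1, 31 lay above (45.6%, against 51.4%), with a median of -0.0041 against 0.0049. Replicate 3 was the lowest array for 38 of the 68 genes, against 3430 of 7570, and replicate 4 the highest for 36, against 2543.

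Both subunits showed these leanings. On replicate 3 the median deviation was -0.11 for the large and -0.09 for the small subunit, and on replicate 4 it was 0.07 and 0.10. On replicate 2 it was 0.04 and 0.06, with 28 of 42 and 23 of 26 genes above their mean. Without replicate 3 the median over the 68 genes was 0.0065 on replicate 2 and 0.04 on replicate 4. The choice of scale moved them: relative to the 75th percentile of detected probes alone, the 68 genes had a median of -0.02 on replicate 3 and 0.03 on replicate 4, and all tested genes 0.0056 and -0.0027.

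The median deviation differed between genes of high and of low level. At mean levels above 2, which 38 of the 68 genes had, the median deviation was -0.13 on replicate 3 and 0.12 on replicate 4, against -0.15 and 0.11 over all tested genes of that level. Of the 38, 13.2% lay above their mean on replicate 3 and 89.5% on replicate 4, against 11.8% and 82.9%. On replicate 2 it was 84.2% against 66.6%, and on replicate 1 it was 36.8% against 50.3%. At levels below -2 the 7 genes (Mrpl42, Mrpl47, Mrpl50, Mrps2, Mrps14, Mrps22 and Mrps27) had medians of 0.24 on replicate 3 and -0.30 on replicate 4, against 0.02 and -0.03. These 7 genes had signals of 25.6 to 167.4 units, and 5 of them lay above their mean on replicate 3. With so few genes, and no test, their medians are a description only.

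**Figure D5:**
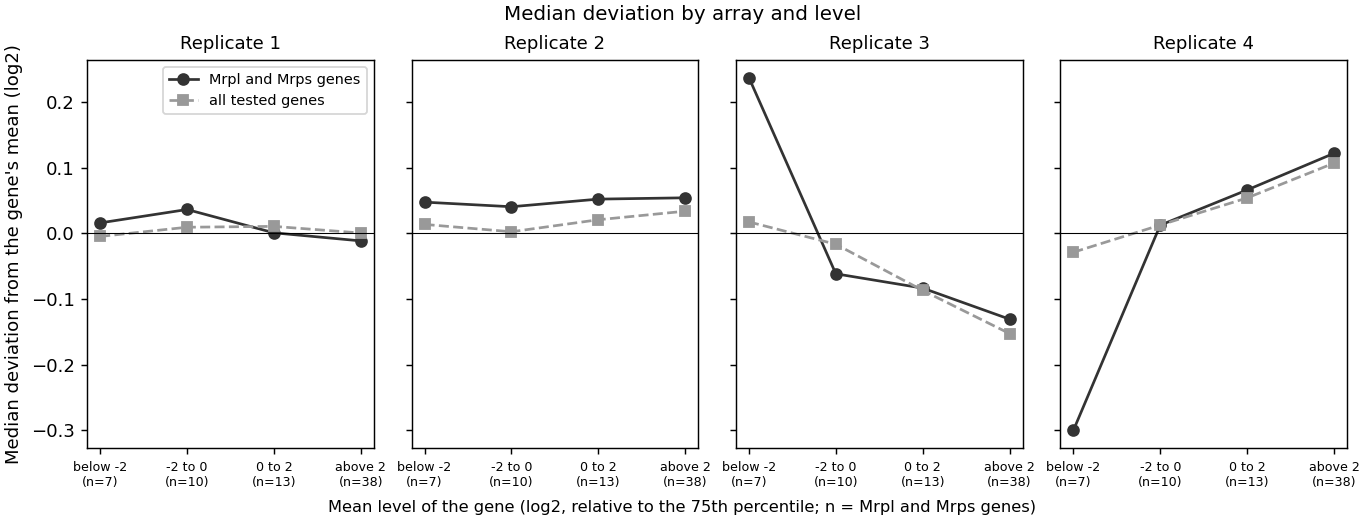
Median deviation from the gene's mean (log2, vertical axis) in 4 classes of mean level (horizontal axis, with the number of Mrpl and Mrps genes in each), 1 panel a replicate. Dark points stand for the Mrpl and Mrps genes and grey squares for all tested genes. On replicate 3 the points lay at -0.13 above a level of 2, against -0.15 for the squares. At 0 to 2 they lay at -0.08 against -0.09, and at -2 to 0 at -0.06 against -0.02. They parted most in the lowest class of 7 genes, at 0.24 against 0.02.

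Probes of the same gene did not always give the same answer. Of 85 probes for the 68 genes, 79 were well above background on all arrays, 5 on none and 1, the third probe of Mrpl40, on 3. The 5 belonged to Mrpl15, Mrpl30 (2 probes), Mrpl47 and Mrps35, each of which had another probe well above background. Over the 10 genes with several probes well above background on all arrays, the deviations of the probes on an array differed by at most 0.06 (Mrpl36) to 0.41 (Mrps27). The 3 detected probes of Mrpl30 all had their lowest value on replicate 4, where the one used for its level lay at 1.87 against 2.27, 2.41 and 2.36. The gene table lists pseudogenes for 21 of the 68 genes, 9 of them for Mrpl30, so their probes may also bind transcripts of those copies. The 21 had a median SD of 0.138 and the other 47 had 0.147.

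Genes that work with the mitochondrial ribosome are given beside the 45.7% of all named genes that were well above background on all 4 arrays. All 5 subunit genes with other names (Dap3, Ptcd3, Chchd1, Aurkaip1 and Gadd45gip1) were so on all 4 arrays. Of 15 measured translation factors 11 were. The exceptions were the initiation factor Mtif2 and the recycling factor Mrrf on 1 array, the release factor Mtrf1l on 3 and Slirp, a partner of Lrpprc in mRNA stability, on none. Tufm, the elongation factor that brings in tRNA, lay at 4.26, 4.25, 4.01 and 4.35 (SD 0.15, n = 4). Of 24 measured assembly factors 22 were well above background on all arrays, with Mrm1 on 1 and Mettl15 on none. Of 8 transcription and replication genes of mitochondrial DNA 6 were, with Tefm on 3 and Mterf2 on none.

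Among these lists the variance test called 1 of 44 tested genes, against 0.515% of all 7570. It was Malsu1, which binds the large subunit and keeps it from joining the small one too early. It lay at 1.03, 2.15, 1.99 and 2.12 (SD 0.53, n = 4), with an adjusted p of 0.0172 in limma's prior variance test with Benjamini-Hochberg adjustment. Replicate 1 was its low array, as for Mrps35 and Mrps21l, and its spot lay at column 13.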

How the data were processed

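Total RNA of 4 exposed cultures was measured on 4 arrays. Titles of the samples gave group and replicate number. The authors' deposited intensity values are the processed signals of Agilent Feature Extraction 11.0.1.1 (per the submitters' processing notes), background-subtracted per the file headers and not scaled between arrays. The deposited median spot and background signals and the flags, per the file headers, were used too.

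Spots with a flag for non-uniformity or as population outliers (634 to 669 of 62976 per array) were removed. Each level is the log2 processed signal less the 75th percentile of its array's non-control spots. Spots of 1 probe were averaged. Of 45598 probes, 21107 were named by accession, without versions, through the RefSeq gene table of assembly GRCr8. Where a gene had several probes, the one with the highest mean signal gave its level, and any probe well above background counted for detection. Promoters were matched by symbol to RefSeq windows of the same assembly.

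Variances over the 4 arrays were tested with limma 3.58.1 in R 4.3.3 (squeezeVar with trend and robust estimation, 24.3 prior degrees of freedom, upper tail of F, Benjamini-Hochberg over 7570 genes). The test was tried on simulated data, where it called 0 of 7370 unchanged genes. Their variances were drawn from the fitted prior that the test assumes, so few false calls were built in. The simulated noise was normal and independent, with no effect of array or position, so false calls from such effects were not tested. An array was said to stand apart where Dixon's ratio passed its 95% critical value. Tables were handled with data.table (version 1.17.8) and jsonlite (2.0.0), and figures and promoters with Python 3.11.15, pandas 2.3.3 and matplotlib 3.10.9.

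The genes, the lists of related genes and the tests were chosen with earlier results of these data known. The genes named were those called by the test, those with an array set apart, the 5 largest and 3 smallest SDs of each subunit, those with 1 probe well above background on all arrays and another on none, and genes of known role, whatever their values. Mrpl11 was planned as a gene of known role too, but it was not among the 68 genes. The other genes are covered by counts and ranges. Of the lists, called genes and genes not well above background on all arrays were named, and Tufm was named after its values were seen, as were Mrpl38, Mrps21, Mrpl36 and the neighbours of Mrpl and Mrps genes. With 1 group, no treatment comparison was possible, and the number of arrays limits the precision.

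The alternatives tried were other detection flags and numbers of arrays, an average over all detected probes of a gene, the subunit by structure, a normexp background correction (offset 50) on median spot signals, other scales and quantile normalization, other priors, other filters on dim genes, flagged spots kept, spots beyond column 72 alone and each replicate left out.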

Additional observations from a re-analysis of the deposited data

Results flagged for a closer look

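In 5 of the 68 genes, 1 array was set apart by Dixon's ratio of gap to range, against 413 of 7570 tested genes, or 5.46%, a share that chance alone nearly gives at a 95% limit. Mrpl1 lay 0.59 above its mean on replicate 3, and leaving that array out took its SD from 0.39 to 0.06. Mrps21l stood at -0.82 from its mean on replicate 1, Mrps18c at -0.14 and Mrps2 at -0.16 on replicate 3, and Mrps31, a mitochondria-specific small subunit protein, at -0.25 on replicate 4. Mrps31 lay at -1.44, -1.49, -1.43 and -1.79 on replicates 1 to 4. Of the 5 genes, 4 belong to the small subunit by symbol and 1 to the large. The SDs without the array set apart were 0.01 for Mrps18c and for Mrps2 and 0.03 for Mrps31.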

How the results depend on the processing

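Detection held for all 68 genes under the 7 alternatives tried for it, and counting Mrps18a and Mrps30 with the large subunit gave 44 and 24. The median SD stayed between 0.115 and 0.175 for the large subunit and between 0.0992 and 0.156 for the small over 15 alternatives. Median deviations kept their sign on replicates 2, 3 and 4 over 13 alternatives, but not their size: without replicate 3 that on replicate 2 went from 0.0491 to 0.00645 and that on replicate 4 from 0.0839 to 0.0434. On replicate 1, where the median was -0.0041, it was 0.0396 with normexp and -0.122 beyond column 72, where all tested genes stood at -0.123. Of 489 SDs of named genes under alternatives, 475 kept their side of the threshold and 14 lost a call, all of Mrps35 and Mrps21l. Their SDs without replicate 1 were 0.147 and 0.0818, while in the other settings that lost the calls they were 0.558 to 0.679 and 0.553 to 0.641. With normexp the SD was 0.149 for Mrpl42, 0.197 for Mrpl47, 0.135 for Mrpl50 and 0.154 for Mrps22, against 0.423, 0.412, 0.283 and 0.324. Small SDs rose with normexp, to 0.0914 for Mrpl32, 0.0966 for Mrpl41, 0.141 for Mrpl46 and 0.149 for Mrps33. In the main setting these were 0.0317, 0.0374, 0.046 and 0.0676.

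The count of variance calls depended on the setting. By limma's prior variance test, 0 of the 68 genes were called with the 75th percentile of detected probes (5 at an unadjusted p under 0.05), after quantile normalization (5), with a prior not robust (4) or without trend (5) and beyond column 72 (3 of 46 genes), and 0 to 2 with 1 replicate left out: 0 without replicate 1, 3 or 4 (4 each) and 2 without replicate 2. Beyond column 72 neither called gene has a spot. For the others the cause was not tested. Over all genes, 39 calls became 206 with normexp, 127 without a filter, 12 after quantile normalization, 9 with a prior not robust, 7 beyond column 72, 0 with the 75th percentile of detected probes (403 at an unadjusted p under 0.05) and 0 without trend (467). With 1 replicate left out the count was 10 to 77. By limma's test, the adjusted p of Mrps35 and of Mrps21l was 0.0501 and 0.108 after quantile normalization, 0.0557 and 0.0939 without replicate 3, 0.055 and 0.0896 without replicate 4, 0.123 and 0.145 with a prior not robust, 0.61 and 0.665 with the 75th percentile of detected probes, 0.659 for both without trend, and 0.982 and 0.987 without replicate 1. With normexp it was 4.81e-13 and 2.23e-05.

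No paired analysis was possible because there is only 1 group. Naming probes also by a gene name column was not run, since the files have no such column, and normexp used median spot signals in place of mean signals. The number of arrays limits every SD, and signals near background limit the 7 genes at levels below -2.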
